A study of Mus musculus with 12 samples.

Results

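RAW 264.7 macrophages that had been given the agent PSTO were exposed to LPS, and the transcripts that LPS induced or repressed were measured by RNA sequencing. The comparison rests on 6 of the 12 libraries in the series, taken by the agent named in the sample labels: 3 PSTO+LPS libraries and 3 PSTO libraries. Cells of the PSTO+LPS group received 20 uM PSTO for 30 minutes before LPS at 500 ng/mL, and cells of the PSTO group received the same PSTO without LPS. All cells were collected after 6 h. In the other 6 libraries vehicle stood in for PSTO, with LPS (3 libraries, LPS group) or without it (3 libraries, control group). They serve here to show where the response with PSTO departs from the response without it. RAW 264.7 is an established mouse macrophage line, so the data describe that line and no primary cell. The labels do not explain the name PSTO, while the title of the series mentions a garlic extract. Nothing in the labels ties the replicates to separate cultures, so each p-value reflects the scatter of these libraries, which may be technical.

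Lipopolysaccharide (LPS) comes from the outer membrane of Gram-negative bacteria and is sensed by Toll-like receptor 4 with its partners MD-2 and CD14. From the receptor, adaptors of the MyD88 and TRIF types start separate branches. The first activates NF-kB and MAP kinases and leads to cytokines, chemokines and feedback inhibitors. The second activates interferon regulatory factors, which lead to interferon beta, and secreted interferon then drives interferon-stimulated genes through STAT proteins and IRF9. Macrophages stimulated in this way are also known to remodel their metabolism, their surface receptors and their cell cycle.

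Promoter stretches of some of the genes described below show the letters that these factors are known to bind. Each is 100 bases long, lies within the 250 bases before a RefSeq start site of the build GRCm38.p6, and is printed 5′ to 3′ on the strand of its gene. The letters searched for NF-kB were GGGNNTTTCC, and those for the interferon-stimulated response element, bound by IRF9 with STAT proteins and by other IRF proteins, were GAAANNGAAA. For E2F, the factor family of genes used in DNA replication, they were TTTGGCGC. Both strands were read, and capitals mark a match.
Gbp5, NF-kB letters, chr3:142496787-142496886, plus strand: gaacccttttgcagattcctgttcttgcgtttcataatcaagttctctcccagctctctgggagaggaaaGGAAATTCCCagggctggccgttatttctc
Il6, NF-kB letters, chr5:30013000-30013099, plus strand: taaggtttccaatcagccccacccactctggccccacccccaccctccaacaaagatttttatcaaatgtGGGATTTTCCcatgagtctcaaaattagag
Tnfaip3, NF-kB letters, chr10:19015411-19015510, minus strand: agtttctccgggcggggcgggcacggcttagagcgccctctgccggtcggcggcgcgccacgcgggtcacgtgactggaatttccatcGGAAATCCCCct
Rsad2, response element letters, chr12:26456543-26456642, minus strand: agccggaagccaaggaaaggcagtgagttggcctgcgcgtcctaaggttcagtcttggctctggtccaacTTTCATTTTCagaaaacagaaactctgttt
Ifit1, 2 response element matches, chr19:34640734-34640833, plus strand: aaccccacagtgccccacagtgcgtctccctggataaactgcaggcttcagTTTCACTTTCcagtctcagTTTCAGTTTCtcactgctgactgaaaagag
Ifit3, 2 response element matches, chr19:34583337-34583436, plus strand: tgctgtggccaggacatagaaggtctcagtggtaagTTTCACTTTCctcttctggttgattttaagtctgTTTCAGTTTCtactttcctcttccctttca
Mcm5, E2F letters, chr8:75109288-75109387, plus strand: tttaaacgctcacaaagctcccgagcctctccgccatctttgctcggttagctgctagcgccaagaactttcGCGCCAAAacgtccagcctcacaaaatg
Pola1, E2F letters, chrX:93632266-93632365, minus strand: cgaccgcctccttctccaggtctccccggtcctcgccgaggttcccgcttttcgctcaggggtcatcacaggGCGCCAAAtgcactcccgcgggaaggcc

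The first 6 of these genes rose with LPS and the last 2, which serve DNA replication, fell. Gbp5, Il6, Rsad2, Ifit1 and Ifit3 are shown because they had the largest rises among candidate genes with a match. The candidates were the 12 largest rises and falls and the NF-kB, antiviral and DNA replication lists. The other 3 were added after their values were seen, to show a feedback inhibitor and the replication genes. The window of Ifit3b equals that of Ifit3 at all 100 of 100 positions, so counts of these genes may be split between near-identical copies. Of the 32851 promoters in the table, 1.41% held the NF-kB letters, 2.98% the response element letters and 0.417% the E2F letters. Of the 12197 promoters of tested genes, from which the sets below are drawn, the shares were 1.49, 2.87 and 0.771%. Among 434 promoters of genes that rose at least 10-fold, the shares were 3.92% for the NF-kB letters and 15.0% for the response element letters. Among 403 promoters of genes that fell at least 4-fold they were 2.48% and 1.99%. In the promoters of the interferon-inducible GTPases the response element letters stood in 10 of 12, and in those of the antiviral genes in 9 of 27. The NF-kB letters stood in 6 of 19 promoters of the NF-kB family and its inhibitors, and the E2F letters in 3 of 19 promoters of the DNA replication list. The E2F letters stood in 0 of 21 promoters of the mitosis list. A further set of letters, TTTGAA (CHR), stood in 8 of those 21 and in 11.0% of promoters of tested genes. Its share was 15.7% among the 10-fold rises and 14.1% among the 4-fold falls. Promoters were found by symbol for 9613 of the 14505 tested genes, and a match describes letters only, not a bound site.

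Library totals were 20424584, 15817880 and 20088844 reads in PSTO+LPS and 21847730, 22502284 and 23857202 reads in PSTO. Levels are given as read counts per 1000000 reads, scaled by the TMM method (CPM), as the value of each library or as mean ± SD over 3 libraries. The 10 macrophage markers were all measured, with a summed level of 10300 to 10600 CPM in PSTO+LPS and 10500 to 11000 CPM in PSTO. The markers of the other cell types summed to 12.5 CPM at most in any of the 6 libraries. Those of neutrophils summed to 9.04 to 11.7 CPM in PSTO+LPS and 1.31 to 1.84 CPM in PSTO, with Ngp and Ltf at 0 in all 6, and those of B cells to 5.01 to 6.87 CPM and 0.248 to 0.351 CPM. T cell markers summed to 3.57 to 5.72 CPM in PSTO+LPS and 1.66 to 3.01 CPM in PSTO, and endothelial markers to 11.5 to 12.5 CPM and 6.56 to 11.2 CPM. Erythroid, epithelial and fibroblast markers stayed at or under 0.536 CPM. The library PSTO+LPS 1 stood apart from the rest of its group: the counts of PSTO+LPS 2 and 3 differed by a chi-square of 4.32 per degree of freedom, and those of PSTO+LPS 1 by 12.5 and 14.1 from them.

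LPS moved most expressed genes by a small amount and a smaller set by a large one. At an edgeR quasi-likelihood adjusted p under 0.05, 8662 of 14505 genes (59.7%) were called, 4318 higher (29.8%) and 4344 lower (29.9%). A called change of at least 2-fold was found for 1783 genes upward (12.3%) and 1642 downward (11.3%). The response was lopsided at its extremes. At 10-fold or more, 651 genes were higher and 92 lower, and at 100-fold or more 207 were higher and 8 lower. The median log2 change over all genes was -0.03. All 3 PSTO+LPS libraries lay above all 3 PSTO libraries for 32.2% of genes and below them for 32.6%. With upper-quartile scaling the median of all genes moved by -0.11 and 41.2% of calls were higher in place of 49.8%, so a change of about that size takes its direction from the scaling. In bulk RNA, fewer cells with a transcript and less of it per cell cannot be told apart.

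The share of genes that rose varied with the level in PSTO. Genes with low levels in PSTO passed the filter largely through groups where they were high, so their excess of rises is partly set by the filter and supports nothing. Of the 2813 genes below 1 CPM in PSTO, 27.9% rose and 5.3% fell, and 471 of them rose at least 10-fold, out of 651 such genes in all. Of the 6458 genes between 10 and 100 CPM, 30.1% rose and 41.4% fell. Of the 80 genes at 1000 CPM or more, 70.0% rose and 18.8% fell. At least 5 CPM in PSTO+LPS and under 1 CPM in PSTO was the pattern of 195 genes, and the opposite pattern that of 12. The 1105 genes that rose at least 4-fold took 17.2, 18.5 and 18.7% of all reads in the PSTO+LPS libraries, against 1.8, 1.79 and 1.84% in the PSTO libraries. The genes that fell at least 2-fold took 1.69 to 1.71% of reads in PSTO+LPS and 6.46 to 6.58% in PSTO. Both groups of genes were chosen on this contrast, so these shares only describe how much of the RNA moved.

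**Figure D1:**
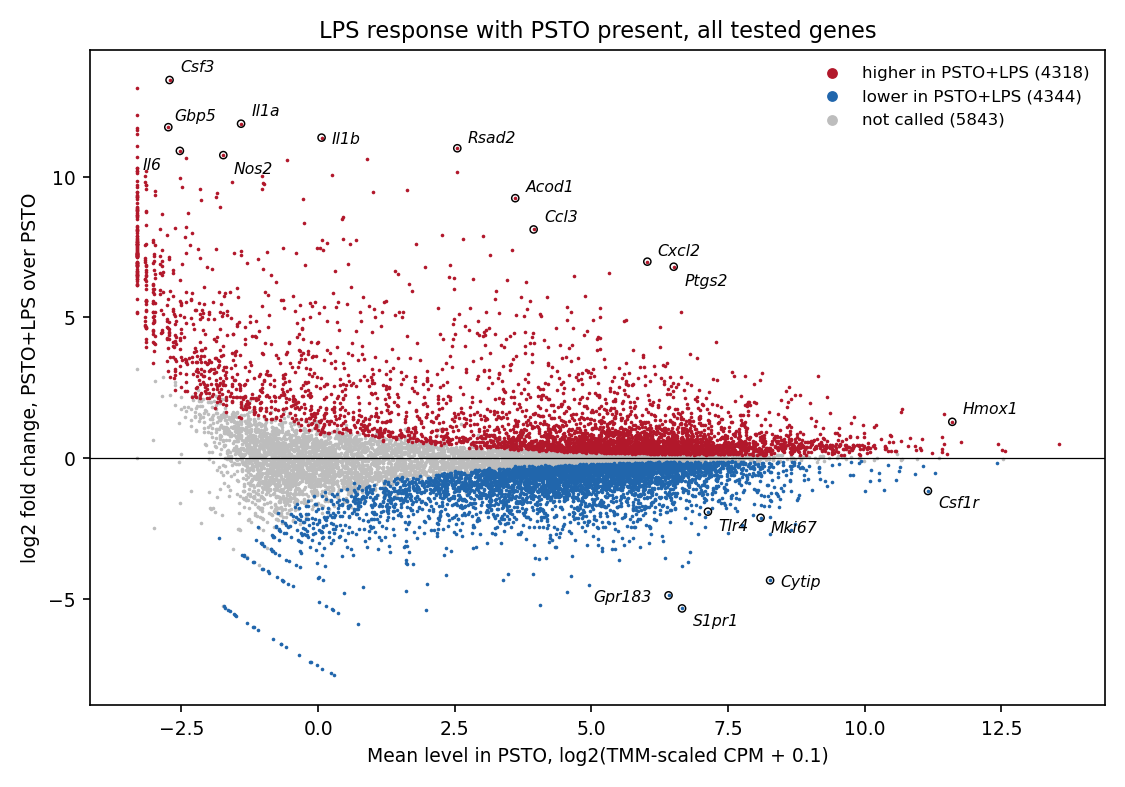
Log2 fold change (PSTO+LPS over PSTO) of every tested gene against its mean level in PSTO on a log2(CPM + 0.1) axis. Red points are the 4318 genes called higher and blue points the 4344 called lower. Csf3 and Il1a, at the top, have PSTO levels near 0 CPM, and S1pr1, Gpr183 and Cytip are the lowest labelled genes. The row of points at the left edge and the diagonal rows at the lower left are genes with no or few reads in 1 group, whose fitted changes are uncertain.

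The 12 largest rises among genes with at least 5 CPM in PSTO+LPS include the cytokine genes Csf3, Il1a, Il6 and Il33. Csf3, which encodes the granulocyte growth factor G-CSF, had 627, 593 and 604 CPM in the PSTO+LPS libraries, against 0.156, 0 and 0 CPM in the PSTO libraries, a log2 change of 13.43 (SE 0.17, edgeR adjusted p = 1.65e-19). Il1a, an alarm cytokine released by damaged or activated cells, had 1042, 1026 and 1078 CPM in the PSTO+LPS libraries, against 0.351, 0.301 and 0.177 CPM in the PSTO libraries, a log2 change of 11.88 (SE 0.18, edgeR adjusted p = 4.25e-20). Il6, a cytokine of fever and the acute phase, had 156, 147 and 159 CPM in the PSTO+LPS libraries, against 0.0781, 0 and 0.142 CPM in the PSTO libraries, a log2 change of 10.91 (SE 0.22, edgeR adjusted p = 3.78e-17). All 3 PSTO+LPS libraries were high and all 3 PSTO libraries low for these genes, with no overlap. Il33, another alarmin of the interleukin-1 family, had 116, 177 and 156 CPM in the PSTO+LPS libraries, against 0, 0.226 and 0.0355 CPM in the PSTO libraries. Cd69, an early activation marker of leukocytes, had 8.98, 8.91 and 9.06 CPM in the PSTO+LPS libraries and not a single read in PSTO.

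For 113 genes no read was found in the PSTO libraries, and 111 of them were called higher. These genes could pass the filter only through another group, so that direction was set in advance. A fold for such a gene is a lower bound, set against 3 reads over the 3 PSTO libraries together, which covers counting error only. U90926, a gene whose product is not well described, was at least 675.6-fold higher, with 28.4, 25.3 and 21.9 CPM in the PSTO+LPS libraries. Csf2, which encodes the growth factor GM-CSF, was at least 494.0-fold higher, at 20.8, 15.6 and 18.9 CPM. Tnfsf15, a TNF family ligand, was at least 419.0-fold higher, at 12.7, 15.1 and 19.1 CPM. The same bound was 240.8 for Cd69, 170.8 for the neurotrophic factor gene Gdnf, 160.1 for the protease gene Fap, 132.5 for the pheromone receptor gene Vmn2r90 and 119.2 for the matrix protein gene Thbs4. In the other direction, 25 genes had no read in PSTO+LPS and 22 of them were called lower, a direction that was likewise set in advance.

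The 12 largest falls among genes with at least 5 CPM in PSTO include 4 receptors for lipids, oxysterols, complement and cannabinoids. S1pr1, the sphingosine 1-phosphate receptor that guides cells out of tissues, had 2.07, 2.57 and 2.86 CPM in the PSTO+LPS libraries, against 104, 101 and 97.9 CPM in the PSTO libraries, a log2 change of -5.34 (SE 0.10, edgeR adjusted p = 1.13e-18). Gpr183, a receptor for oxysterols that directs immune cells, had 1.5, 2.87 and 4.35 CPM in the PSTO+LPS libraries, against 96.9, 80.7 and 77.6 CPM in the PSTO libraries, a log2 change of -4.87 (SE 0.18, edgeR adjusted p = 1.11e-14). Cytip, a partner of the cytohesins that regulates adhesion, had 12.2, 18.9 and 15.1 CPM in the PSTO+LPS libraries, against 346, 309 and 271 CPM in the PSTO libraries, a log2 change of -4.34 (SE 0.13, edgeR adjusted p = 3.45e-16). The groups did not overlap for these genes, and PSTO+LPS was the low one. C5ar2, a receptor for the complement fragment C5a, fell by 4.13 on the log2 scale, the cannabinoid receptor gene Cnr2 by 4.10, the Ras association gene Rassf2 by 3.81 and the adhesion gene Nectin1 by 3.67. Fam13c (-4.77), Trim65 (-4.50), Marveld1 (-3.62), Prtg (-3.57) and Fam78a (-3.55) complete the 12 largest such falls, as log2 changes. Among genes that fell at least 2-fold, those with the most reads in PSTO were Csf1r, Lrp1, Picalm, Slc6a6, Gusb, Fmnl1, Mlec, Antxr2, Zfp36l2 and Slc37a2. Lrp1, a large endocytic receptor, had 604 ± 51.2 CPM in PSTO+LPS, against 1312 ± 16.4 CPM in PSTO, and Picalm, a clathrin adaptor, had 456 ± 9.91 CPM in PSTO+LPS, against 1029 ± 97.5 CPM in PSTO. The sugar phosphate carrier gene Slc37a2 fell by 2.56, the anthrax toxin receptor gene Antxr2 by 1.47, Mlec, which encodes a glycan-binding protein of the endoplasmic reticulum, by 1.40, the formin gene Fmnl1 by 1.32 and the lysosomal enzyme gene Gusb by 1.12. The taurine carrier gene Slc6a6 had 319 ± 18.7 CPM in PSTO+LPS, against 639 ± 14.6 CPM in PSTO.

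**Figure D2:**
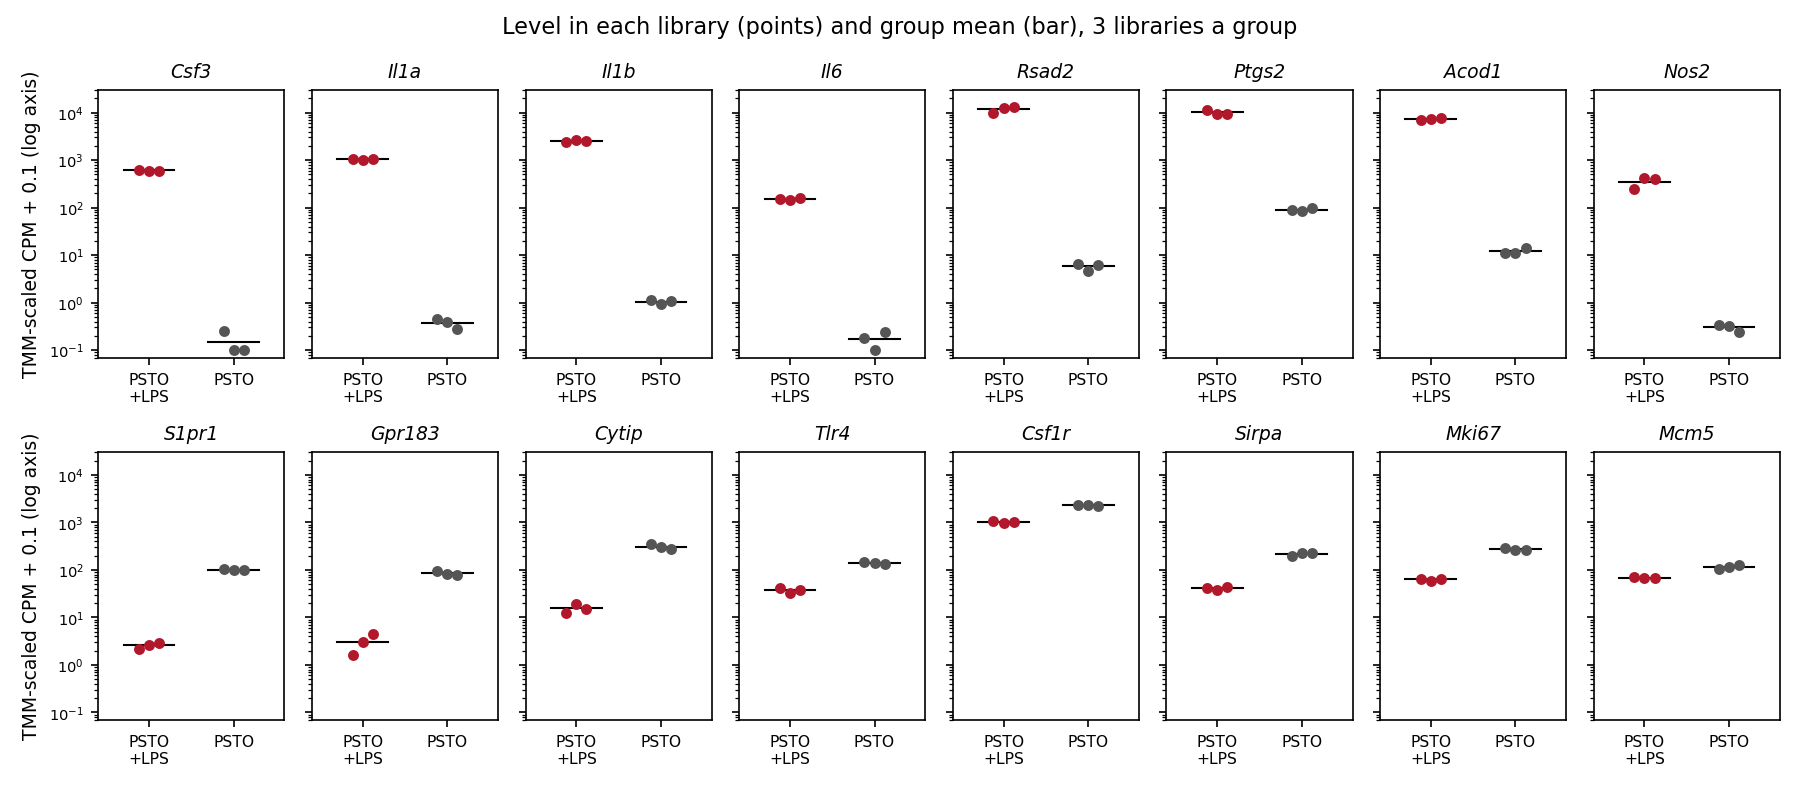
TMM-scaled CPM + 0.1 of each library (points, log axis) and the mean of the group (bar) for 8 genes that rose and 8 that fell, with PSTO+LPS left of PSTO. No gene shown has overlapping groups, and the PSTO levels of Csf3, Il1a, Il6 and Nos2 lie under 0.5 CPM.

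To describe the response by function, 1093 genes were placed in 60 lists, and 1036 of them passed the filter on low counts. Members that passed because LPS raised them had to differ, so the counts below are read beside the shares over all tested genes, 29.8% higher and 29.9% lower. In all, 623 listed genes were higher and 257 lower. Under upper-quartile scaling 2 of these 880 calls changed sign, none larger than 0.10 on the log2 scale, and 822 stayed called in the same direction. Without PSTO+LPS 1, 851 did. In that fit the counts of many lists moved. As examples, the number of lower genes was 1 for metal handling in place of 0 and 1 for the respiratory chain in place of 2. It was 2 for Fc gamma receptors in place of 1, 4 for the PARP family in place of 3 and 5 for the BCL2 family in place of 6. The number of higher p53 targets was 6 in place of 8.

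**Figure D3:**
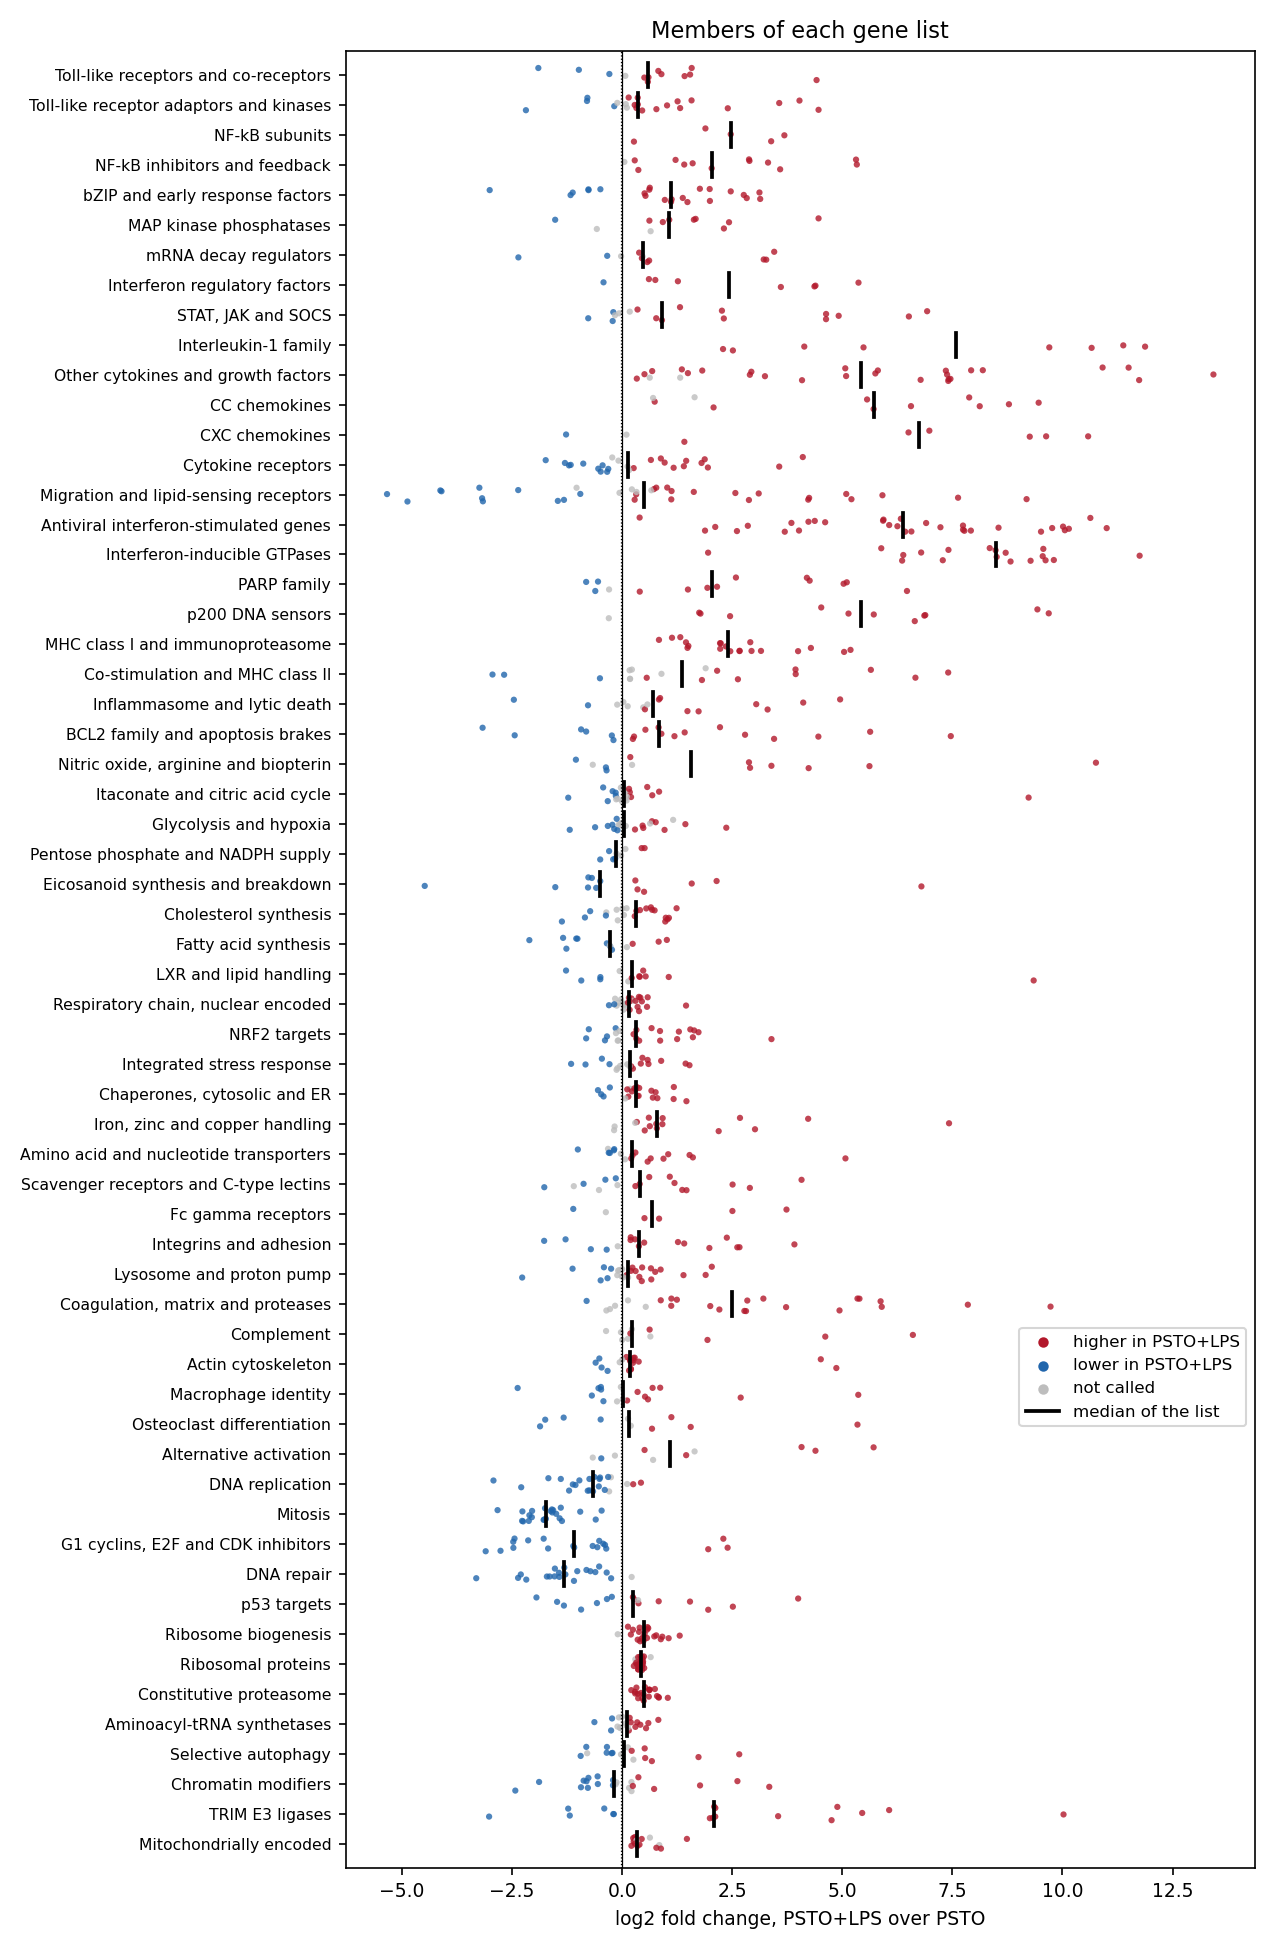
Log2 fold change (PSTO+LPS over PSTO) of each tested member of the 60 lists, coloured by call, with the median of the list as a black bar and the median of all genes as a dotted line at -0.03. Interferon-stimulated, cytokine and chemokine lists lie far to the right, the 4 lists of cell cycle and DNA repair lie to the left, and ribosome, proteasome and metabolic lists lie close to 0.

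The receptors that sense microbes moved in different directions. Of 13 Toll-like receptor and co-receptor genes 9 rose and 3 fell, with a median log2 change of 0.60. Tlr4, the receptor for LPS itself, had 41, 32.9 and 38.2 CPM in the PSTO+LPS libraries, against 149.6, 139.9 and 131 CPM in the PSTO libraries, a log2 change of -1.90 (SE 0.08, edgeR adjusted p = 7.90e-14). Cd14, its co-receptor, had 5122, 5327 and 5174 CPM in the PSTO+LPS libraries, against 3667, 3393 and 3356 CPM in the PSTO libraries, a log2 change of 0.58 (SE 0.04, edgeR adjusted p = 2.28e-10). The receptor and the co-receptor thus moved apart, each with groups that do not overlap. Tlr3, the sensor of double-stranded RNA, reached 98.1 ± 12.5 CPM with LPS, a log2 rise of 4.42, and that of Tlr2, the lipoprotein receptor, was 1.58. Tlr1 (1.54) and Tlr9 (1.42) rose too, and Tlr8 (-0.98) fell.

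Downstream of the receptors, 15 of 22 adaptor and kinase genes rose and 4 fell, with a median log2 change of 0.36. The largest rises were those of Ikbke (4.46), the kinase that activates IRF proteins, the ubiquitin ligase gene Peli1 (4.03), the MAP kinase kinase kinase gene Map3k8 (3.57), and Irak3 (2.40), an inhibitor of the receptor complex. Ticam2, which encodes the bridging adaptor of the TRIF branch, fell by 2.18 on the log2 scale, to 1.65 ± 0.37 CPM in PSTO+LPS against 7.55 ± 0.721 CPM in PSTO. Irak4 (-0.80) and Tab1 (-0.79), early kinase components, fell as well.

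All 5 NF-kB subunit genes rose and their median log2 change was 2.47. Nfkb1, the p105/p50 subunit, had 1385, 1476 and 1447 CPM in the PSTO+LPS libraries, against 110.2, 106 and 118 CPM in the PSTO libraries, a log2 change of 3.69 (SE 0.05, edgeR adjusted p = 1.30e-20). Nfkb2 rose by 3.38, Relb by 2.47, Rel by 1.89 and Rela, the p65 subunit, by 0.27. The inhibitors rose with them, 12 of 13, with a median of 2.03. Tnfaip3, which encodes the deubiquitinase A20, had 258, 264 and 293 CPM in the PSTO+LPS libraries, against 6.79, 6.32 and 7.13 CPM in the PSTO libraries, a log2 change of 5.33 (SE 0.07, edgeR adjusted p = 1.01e-20). Nfkbiz (IkB zeta, a nuclear coregulator) rose by 5.31, Nfkbia (IkB alpha) by 3.31, Traf1 by 3.59 and Tnip1 by 2.89. Cyld, a further deubiquitinase gene, was not called at 0.05.

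Early response transcription factors were split after 6 h, 17 of 23 higher and 6 lower. Myc rose by 3.14 on the log2 scale, Atf3, a repressor of inflammatory genes, by 3.12, Egr1 by 2.83 and Ier3 by 2.76. Nr4a2, a nuclear receptor of the early class, had 8.12, 6.95 and 9.6 CPM in the PSTO+LPS libraries, against 70.6, 68 and 61 CPM in the PSTO libraries, a log2 change of -3.01 (SE 0.12, edgeR adjusted p = 4.43e-14). Fos (-0.76), Jun (-0.49), Jund (-1.17), Fosl2 (-0.76) and Nr4a1 (-1.12) were also lower. Of 11 phosphatases that switch off MAP kinases 8 rose and 1 fell, with Dusp2 at 4.46, Dusp5 at 2.43, Dusp6 at 2.31 and Dusp3 at -1.52. Of 11 regulators of cytokine mRNA decay 7 rose and 2 fell. Zfp36 (tristetraprolin) rose by 3.27 and Zc3h12a (regnase-1) by 3.45, while Zfp36l2 fell by 2.35 to 83 ± 10.4 CPM, against 424 ± 7.86 CPM in PSTO.

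Interleukin-1 family genes all rose, 8 of 8, with a median log2 change of 7.59. Il1b had 2418, 2602 and 2584 CPM in the PSTO+LPS libraries, against 1.01, 0.828 and 0.993 CPM in the PSTO libraries, a log2 change of 11.38 (SE 0.12, edgeR adjusted p = 6.03e-22). Il1rn, which encodes the receptor antagonist that blocks interleukin-1, rose by 4.14 to 2742 ± 219.7 CPM, against 156 ± 10.6 CPM in PSTO. Il1f9 rose by 5.48, Il18 by 2.52 and Il18bp, the decoy for interleukin-18, by 2.29. Il1f6 had 1 read in PSTO, and its ratio was 1188 (95% counting interval 212 to 46980).

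Of 28 other cytokine and growth factor genes 26 were higher and none lower, while Lta (1.32) and Gdf15 (0.63) were not called. The median log2 change was 5.42, or 5.08 with the 3 genes without a read in PSTO placed at their bound. Tnf, the acute inflammatory cytokine, had 1544, 1499 and 1690 CPM in the PSTO+LPS libraries, against 24.9, 29 and 33.8 CPM in the PSTO libraries, a log2 change of 5.75 (SE 0.09, edgeR adjusted p = 5.15e-20). Ifnb1, the gene for interferon beta, had 12, 11.2 and 16.9 CPM in the PSTO+LPS libraries, against 0, 0 and 0.142 CPM in the PSTO libraries, a log2 change of 7.93 (SE 0.45, edgeR adjusted p = 9.09e-11). Il23a, the p19 subunit of interleukin-23, had 29.4, 25.6 and 26 CPM in the PSTO+LPS libraries, against 0.0781, 0.113 and 0.0709 CPM in the PSTO libraries, a log2 change of 8.19 (SE 0.36, edgeR adjusted p = 1.99e-13). Il10, an anti-inflammatory cytokine, rose by 5.81 to 24.7 ± 3.44 CPM, against 0.433 ± 0.155 CPM in PSTO. Il12b, which encodes the subunit that pairs with p19, did not pass the filter on low counts.

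Chemokine genes rose by large factors. Of 11 CC chemokines 9 were higher and none lower, with a median of 5.71 (5.56 with Ccl12 at its bound), and of 8 CXC chemokines 6 were higher and 1 lower, with a median of 6.74 (5.34 with Cxcl9 at its bound). Ccl3, which attracts monocytes and other leukocytes, had 4034, 4372 and 4372 CPM in the PSTO+LPS libraries, against 15.8, 14.2 and 15.8 CPM in the PSTO libraries, a log2 change of 8.12 (SE 0.10, edgeR adjusted p = 5.77e-21). Cxcl2, which attracts neutrophils, had 9004, 7817 and 7734 CPM in the PSTO+LPS libraries, against 73.3, 64.1 and 57.6 CPM in the PSTO libraries, a log2 change of 6.98 (SE 0.12, edgeR adjusted p = 1.28e-19). Cxcl10, the interferon-induced attractant of T cells, had 716, 931 and 1010 CPM in the PSTO+LPS libraries, against 0.898, 0.113 and 0.709 CPM in the PSTO libraries, a log2 change of 10.58 (SE 0.22, edgeR adjusted p = 2.96e-18). Ccl5 rose by 9.46, Ccl4 by 7.88, Ccl2 by 5.56, Cxcl3 by 9.26 and Cxcl11 by 9.63. Ccl7 had 1 read in PSTO and a ratio of 616 (95% counting interval 109.9 to 24390). Cxcl14, a chemokine that cells make at rest, fell by 1.27.

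The interferon programme rose as a block. All 32 antiviral interferon-stimulated genes rose, 31 of them at least 2-fold, with a median log2 change of 6.38. Rsad2, which encodes viperin, had 9934, 12610 and 12880 CPM in the PSTO+LPS libraries, against 6.52, 4.48 and 6.24 CPM in the PSTO libraries, a log2 change of 11.00 (SE 0.17, edgeR adjusted p = 7.06e-20). Ifit1, a sensor of foreign RNA caps, had 2370, 2981 and 3078 CPM in the PSTO+LPS libraries, against 1.21, 1.92 and 2.13 CPM in the PSTO libraries, a log2 change of 10.63 (SE 0.25, edgeR adjusted p = 1.89e-17). Cmpk2, the neighbour and partner of Rsad2 in nucleotide metabolism, had 5253, 7165 and 7257 CPM in the PSTO+LPS libraries, against 4.49, 4.85 and 7.91 CPM in the PSTO libraries, a log2 change of 10.14 (SE 0.20, edgeR adjusted p = 1.51e-18). In these genes every PSTO library was under 10 CPM. Ifit3 rose by 10.05 and its near-identical copy Ifit3b by 10.01, Oasl1 by 6.57, Isg15 by 7.92, and Ifi27l2a, the member with the smallest change, by 0.40.

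All 18 interferon-inducible GTPase genes rose, with a median log2 change of 8.49, or 6.81 with 5 members without a read in PSTO placed at their bound. Gbp5, which acts on bacterial membranes and the inflammasome, had 134, 200.1 and 237 CPM in the PSTO+LPS libraries, against 0.0781, 0 and 0.0709 CPM in the PSTO libraries, a log2 change of 11.75 (SE 0.34, edgeR adjusted p = 3.33e-16). Gbp2 rose by 9.80 and Gbp2b by 9.55. Gbp4 had 1 read in PSTO and a ratio of 1074 (95% counting interval 192 to 42490), and Gbp10 was at least 113.1-fold higher. Gbp6 with Gbp10 and Tgtp1 with Tgtp2 are near-identical pairs whose reads the counting may have split. Of 12 genes of the p200 DNA sensor list 11 rose, among them Ifi209 (9.43), Ifi204 (6.86) and Mnda (6.65). Parp14, a mono-ADP-ribosyltransferase of interferon responses, led the PARP family at 6.47, where 10 of 14 rose, and Parp1, the DNA repair enzyme, fell (-0.82). Of 17 TRIM ubiquitin ligase genes 11 rose and 6 fell, with Trim30a at 4.89, Trim21 at 4.76 and Trim47 at -3.02. Rnf213, a giant ubiquitin ligase outside that family, had 3679 ± 492 CPM in PSTO+LPS, against 99.8 ± 10.02 CPM in PSTO and rose by 5.20.

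The factors that run the interferon programme rose as well. Of 8 IRF genes 7 were higher and Irf3, which is activated without new synthesis, was lower (-0.42). Irf7, the amplifier of interferon production, had 787, 1050 and 1047 CPM in the PSTO+LPS libraries, against 24, 20.9 and 24.8 CPM in the PSTO libraries, a log2 change of 5.37 (SE 0.10, edgeR adjusted p = 4.60e-19). Irf4 rose by 4.39, Irf1 by 4.37 and Irf9 by 3.60. Of 17 STAT, JAK and SOCS genes 11 rose and 3 fell. Stat2 rose by 4.63, and the feedback inhibitor genes Socs1 by 6.51, Socs3 by 4.92 and Cish by 6.93. The interferon receptor gene Ifnar2 fell by 0.49, and Ifnar1 was not called (-0.08).

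Antigen presentation by MHC class I rose throughout. All 20 genes of that list and the immunoproteasome were higher, with a median log2 change of 2.41, led by H2-T24 (5.19), the peptide transporter gene Tap1 (5.04), the transactivator gene Nlrc5 (4.29) and Psmb9 (3.15). The classical H2 genes share much of their sequence, so their separate values are uncertain. Of 18 co-stimulation and MHC class II genes 9 rose and 3 fell. Cd40, the receptor for T cell help, rose by 6.66, Tnfsf4 (OX40 ligand) by 7.41 and the checkpoint ligand gene Cd274 (PD-L1) by 5.65. The class II transactivator gene Ciita was not called, at 0.238 ± 0.244 CPM in PSTO+LPS, against 0.0627 ± 0.059 CPM in PSTO, and neither were H2-Aa, H2-Ab1 and H2-Eb1. Vsir (-2.94) and Cd276 (-2.68), further checkpoint ligands, fell.

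Of 16 inflammasome and lytic death genes 9 rose and 2 fell. Casp4, the sensor of LPS in the cytosol, had 162, 176 and 174 CPM in the PSTO+LPS libraries, against 5.58, 4.97 and 5.99 CPM in the PSTO libraries, a log2 change of 4.95 (SE 0.11, edgeR adjusted p = 6.67e-18). Nlrp3 rose by 3.05, Mefv (pyrin) by 4.11 and Mlkl, the executor of necroptosis, by 3.30, while the pore protein gene Gsdme fell by 2.46. Pycard, which encodes the adaptor ASC, stayed under 1 CPM in both groups at 0.532 ± 0.339 CPM in PSTO+LPS, against 0.359 ± 0.188 CPM in PSTO. Of 19 BCL2 family and apoptosis genes 13 rose and 6 fell. The death receptor gene Fas rose by 7.46, the survival genes Bcl2a1d by 4.46 and Cflar by 2.79, and the BH3-only gene Bmf (-3.17) and Bcl2 itself (-2.44) fell. Bcl2a1a, Bcl2a1b and Bcl2a1d are near-identical copies, so reads may be split among them.

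Metabolic genes changed at a few points and little elsewhere. Acod1, which makes itaconate from a citric acid cycle intermediate, had 6972, 7250 and 7627 CPM in the PSTO+LPS libraries, against 11.1, 11.2 and 13.9 CPM in the PSTO libraries, a log2 change of 9.23 (SE 0.10, edgeR adjusted p = 1.70e-21). Of the 23 genes in that list 7 rose and 6 fell, with a median of 0.04 that became -0.07 under upper-quartile scaling (4 higher, 9 lower). The list held a single fall beyond 2-fold, that of the cytosolic isocitrate dehydrogenase gene Idh1 (-1.22). Nos2, the inducible nitric oxide synthase, had 252, 412 and 400.1 CPM in the PSTO+LPS libraries, against 0.234, 0.226 and 0.142 CPM in the PSTO libraries, a log2 change of 10.76 (SE 0.25, edgeR adjusted p = 1.25e-17). PSTO+LPS 1 was the lowest of its group for Nos2, but far above each PSTO library. Around it, the arginine carrier gene Slc7a2 rose by 5.62, Ass1, which recycles citrulline to arginine, by 4.24, Gch1, which starts the synthesis of the cofactor biopterin, by 3.39 and the polyamine enzyme gene Odc1 by 2.91.

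Prostanoid genes moved in both directions. Ptgs2, which encodes cyclooxygenase-2, had 11520, 9297 and 9494 CPM in the PSTO+LPS libraries, against 88.7, 84.7 and 99.1 CPM in the PSTO libraries, a log2 change of 6.80 (SE 0.09, edgeR adjusted p = 5.77e-21). Ptges, the next enzyme toward prostaglandin E2, rose by 1.58 and the thromboxane synthase gene Tbxas1 by 2.15. Hpgd, which breaks prostaglandins down, had 0.288, 0.0755 and 0.119 CPM in the PSTO+LPS libraries, against 1.95, 4.06 and 5.57 CPM in the PSTO libraries, a log2 change of -4.48 (SE 0.50, edgeR adjusted p = 2.61e-07), and Ptgs1 fell by 1.52. Of the 13 eicosanoid genes 6 rose and 7 fell, the leukotriene genes Alox5, Alox5ap, Lta4h and Ltc4s among the falls.

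Glycolysis genes were divided, with 8 of 22 higher, 7 lower and a median of 0.05, or -0.06 under upper-quartile scaling. Pfkfb3, which makes the activator of phosphofructokinase, rose by 2.37 and hexokinase 2 (Hk2) by 1.44, while Pdk1 fell by 1.19. Gapdh varied within each group, at 84.3, 223 and 203 CPM in the PSTO+LPS libraries, against 22.2, 19.6 and 185 CPM in the PSTO libraries, and was not called (1.16, edgeR adjusted p = 0.2). Without PSTO 3 it was called, at 3.05 (edgeR adjusted p = 0.00229). Of 22 cholesterol synthesis genes 12 rose and 4 fell, with Cyp51 at 1.24, Sc5d at 1.06 and the last-step enzyme gene Dhcr7 at -1.37. Fatty acid synthesis leaned the other way, 8 of 13 lower and 3 higher: the desaturase genes Scd2 (-2.11) and Fads1 (-1.34) and the elongase genes Elovl6 (-1.26) and Elovl5 (-1.04) fell. The sterol exporter genes Abca1 (-1.27) and Abcg1 (-0.93) fell, and Ch25h, which makes 25-hydroxycholesterol, was at least 94.16-fold higher.

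On the list of NRF2 and its targets, the antioxidant genes, 14 of 23 were higher with LPS and 5 lower. These counts include Nfe2l2, the gene of NRF2 itself, which was lower (-0.15). They also include Keap1, a regulator of NRF2, which was higher (0.86). Hmox1, which breaks down heme, had 8988, 6753 and 7067 CPM in the PSTO+LPS libraries, against 2481, 3367 and 3487 CPM in the PSTO libraries, a log2 change of 1.29 (SE 0.11, edgeR adjusted p = 5.64e-09). Prdx1 rose by 1.55, Txnrd1 by 1.64, the cystine carrier gene Slc7a11 by 1.61 and Sqstm1 (p62) by 1.74. Sod2, the mitochondrial superoxide dismutase and also an NF-kB target, rose by 3.39. Nqo1 was not called (-0.06), nor was Gclc (-0.14), and Gpx1 fell (-0.82). Of 16 metal handling genes 13 rose and none fell. Lcn2, which captures bacterial siderophores, rose by 7.42, the iron importer gene Slc11a2 by 3.02 and the zinc importer gene Slc39a14 by 2.68.

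Surface receptors moved strongly in both directions. Of 34 receptors for migration and lipid signals 18 rose and 11 fell. Hcar2, a receptor for hydroxybutyrate and niacin, had 445, 414 and 410.5 CPM in the PSTO+LPS libraries, against 1.01, 0.339 and 0.815 CPM in the PSTO libraries, a log2 change of 9.19 (SE 0.14, edgeR adjusted p = 2.95e-20). Ccrl2, a chemokine-binding receptor, rose by 7.63 and the prostaglandin E2 receptor gene Ptger2 by 5.21. Besides S1pr1, Gpr183, C5ar2 and Cnr2, the chemokine receptor genes Cxcr4 (-3.18) and Cx3cr1 (-1.46) and the G protein-coupled receptor gene Gpr35 (-3.16) fell.

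Of 26 cytokine receptor genes 12 rose and 10 fell. Csf1r, the receptor for the growth factor that keeps macrophages alive, had 1062, 989 and 1002 CPM in the PSTO+LPS libraries, against 2304, 2303 and 2248 CPM in the PSTO libraries, a log2 change of -1.17 (SE 0.04, edgeR adjusted p = 2.88e-15). The TGF-beta receptor genes Tgfbr1 (-1.74) and Tgfbr2 (-1.30) fell, and Il15ra (4.10) and the TNF receptor gene Tnfrsf1b (3.57) rose. Csf1, the ligand of Csf1r, rose by 7.46 to 167 ± 37 CPM, against 0.924 ± 0.638 CPM in PSTO. Among uptake receptors, the mannose receptor gene Mrc1 rose by 4.08, the mycobacterial sensor gene Clec4e by 2.51 and the high-affinity IgG receptor gene Fcgr1 by 3.73, while Clec4n (-1.77) and the low-affinity receptor gene Fcgr3 (-1.11) fell.

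Identity genes of macrophages did not move as a block. Of 17, 8 rose and 6 fell, with a median of 0.02 that became -0.10 under upper-quartile scaling. Without PSTO 4 of them rose and 11 fell, with a median of -0.21. The difference between the 2 responses was called higher with PSTO for 9 of 17 and lower for 1, beside 6.96% and 10.1% of all genes. Sirpa, the receptor for the "do not eat me" signal CD47, had 42, 38.2 and 44.6 CPM in the PSTO+LPS libraries, against 201, 224 and 223 CPM in the PSTO libraries, a log2 change of -2.37 (SE 0.07, edgeR adjusted p = 1.38e-16). Maf, a transcription factor, rose by 5.36 to 40.7 ± 11.9 CPM, against 0.981 ± 0.213 CPM in PSTO. Siglec1, a sialic acid receptor that interferon induces, rose by 2.69, and Lyz2 was not called (-0.03). Of 10 osteoclast genes 4 rose and 4 fell, with the fusion gene Dcstamp at 1.56, its partner Ocstamp at -1.86, the receptor gene Tnfrsf11a (RANK) at -1.33 and the factor gene Nfatc1 at -1.75.

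Of 24 coagulation, matrix and protease genes 18 were higher and Adam8 was the 1 lower, with a median of 2.49. Serpinb2, an inhibitor of plasminogen activators, had 309.9, 355 and 362 CPM in the PSTO+LPS libraries, against 0.625, 0.226 and 0.354 CPM in the PSTO libraries, a log2 change of 9.73 (SE 0.14, edgeR adjusted p = 2.66e-20). The collagenase gene Mmp13 rose by 7.85, F3, the tissue factor that starts coagulation, by 5.90, and Timp1, an inhibitor of matrix proteases, by 5.39. The adhesion genes Icam1 (3.91), Itgax (2.67) and Itga5 (2.38) rose, and Itgb5 (-1.77) and Itga4 (-1.28) fell. In the actin list, where 13 of 19 rose and 4 fell but 6 rose and 5 fell under upper-quartile scaling, Marcksl1 (4.87) and Marcks (4.51), which tie actin to the membrane, stood above the rest. Actb, the gene for beta-actin, rose by 0.25, and by 0.13 under upper-quartile scaling, where it was not called (edgeR adjusted p = 0.0503).

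Cell cycle genes fell as a group. All 23 mitosis genes were lower, 20 of them at least 2-fold, with a median log2 change of -1.73. Mki67, the proliferation marker, had 64.6, 59.6 and 64.5 CPM in the PSTO+LPS libraries, against 292, 264 and 265 CPM in the PSTO libraries, a log2 change of -2.12 (SE 0.07, edgeR adjusted p = 6.41e-15). Plk1, a kinase that drives entry into mitosis, fell by 2.26 and Aurkb by 2.25. Of 23 DNA replication genes 18 fell and 2 rose, with a median of -0.66. Rrm2, the regulated subunit that makes deoxynucleotides, had 9.33, 8.08 and 7.15 CPM in the PSTO+LPS libraries, against 37.6, 41.3 and 41.5 CPM in the PSTO libraries, a log2 change of -2.29 (SE 0.12, edgeR adjusted p = 2.79e-12). Mcm2, a subunit of the replicative helicase, fell by 1.20 and Tk1 by 2.92, while Pcna (0.25) and Mcm10 (0.43) were the 2 that rose.

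Of 21 DNA repair genes 20 fell, with a median of -1.31, and Xrcc2 was not called (0.22). Among G1 regulators 16 of 19 fell and 3 rose. E2f2 (-3.10), E2f7 (-2.76), cyclin A2 (Ccna2, -2.44) and the inhibitor gene Cdkn2c (-2.47) were among the falls, and Cdkn1a, which encodes the cell cycle brake p21, was among the rises with 990.3, 973 and 1023 CPM in the PSTO+LPS libraries, against 222, 279 and 269 CPM in the PSTO libraries. The DNA methyltransferase gene Dnmt1, which copies methylation after replication, fell by 1.89, and the histone demethylase gene Kdm6b rose by 2.62. Of 16 p53 target genes 8 rose and 7 fell, with the stress gene Gadd45a at 2.52, Mdm2, which degrades p53, at 1.54 and Sesn1 at -1.95.

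Genes for making and degrading proteins rose slightly while those of division fell. All 20 constitutive proteasome genes were higher, with a median of 0.51 (19 under upper-quartile scaling, median 0.39), led by Psma6 (1.04). Ribosome biogenesis genes were higher in 21 of 22, with a median of 0.50, and ribosomal protein genes in 27 of 29, with a median of 0.43. Rrp9, a component of the small nucleolar particle, rose by 1.31, and Npm1 by 0.88. Chaperone genes were higher in 16 of 22 and lower in 4, with Hspa5 (BiP) at 1.17 and Hsp90aa1 at 1.18. Respiratory chain genes were higher in 14 of 27 and lower in 2, but in 8 and 6 under upper-quartile scaling, mitochondrially encoded genes in 12 of 15 and then in 5, and tRNA synthetase genes in 9 of 20 with 3 lower and then in 6 with 7 lower.

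Lysosomal genes were higher in 14 of 27 and lower in 6, with Ctsc (1.90) and the factor gene Mitf (2.04) up and Tfeb (-2.27), a master regulator of lysosomes, down. Stress response genes, Atf4 (0.60) and genes downstream of it, were higher in 9 of 18 and lower in 4. Cth stood at 1.53 and Trib3 at -1.16. Complement genes were higher in 5 of 11 and lower in none, with C3 at 1.94 and the ratio of Cfb, with 3 reads in PSTO, at 111 (95% counting interval 37.4 to 542.2). The amino acid and nucleotide carriers were higher in 10 of 18 and lower in 5, and the lipid handling genes were higher in 7 of 13 and lower in 4. Pentose phosphate genes were higher in 2 of 9 and lower in 4, and selective autophagy genes were higher in 6 of 16 and lower in 6. Alternative activation genes were higher in 5 of 10, Irf4 and Mrc1 among them, and lower in 1, and Arg1 was not called, at 2.05 ± 0.539 CPM in PSTO+LPS, against 3.25 ± 0.882 CPM in PSTO. Of 6 Fc gamma receptor genes 4 rose and 1 fell, and of 17 scavenger receptors and lectins 10 rose and 4 fell. Of 17 integrin and adhesion genes 12 rose and 4 fell, and of 22 chromatin modifier genes 6 rose and 11 fell. Several of these counts depend on the scaling. Under upper-quartile scaling lysosomal genes were higher in 12 and lower in 9, and stress response genes in 7 and 6. Lipid handling genes were then higher in 5 and lower in 5, and complement genes in 4 and 1. Pentose phosphate genes were then higher in 2 and lower in 6, and integrin and adhesion genes in 9 and 4.

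The same LPS dose without PSTO gave a largely overlapping response. In LPS against control 4753 genes were higher (32.8%) and 4368 lower (30.1%), a share of higher calls of 52.1% that was 41.8% under upper-quartile scaling. These libraries are not those of the PSTO pair. Of the 4318 genes that rose with PSTO, 3714 also rose without it, which is 86.0% of this list and 78.1% of the other. Of the 4344 that fell, 3419 also fell without it, 78.7% and 78.3% of the lists. In 155 genes the calls pointed in opposite directions, with 51 higher and 104 lower where PSTO was present. The difference was called for all 155, but choosing genes by opposite calls in the same fit largely fixed that outcome. Across genes, which are not independent replicates, the log2 changes with and without PSTO had a Pearson correlation of 0.876 and a Spearman correlation of 0.812.

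The difference of the responses was tested for each gene, as the log2 change with PSTO minus that without. It was called for 1010 genes in the direction of PSTO (6.96%) and 1466 against it (10.1%). The positive share of these calls was 40.8%, and it ran from 37.8 to 54.1% across the other fits, so the balance between the directions depends on the fit. Of the 1783 genes that rose at least 2-fold with PSTO, 214 rose more than without it, 289 rose less, and for 1280 the difference was not called. Of the 1642 that fell at least 2-fold, 199 fell more, 136 fell less and 1307 were not called. Both groups of genes were chosen on the change with PSTO, which is part of the tested difference. That choice favours larger changes with PSTO, so these splits only describe the groups. A difference that was not called does not show that the responses are equal.

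**Figure D4:**
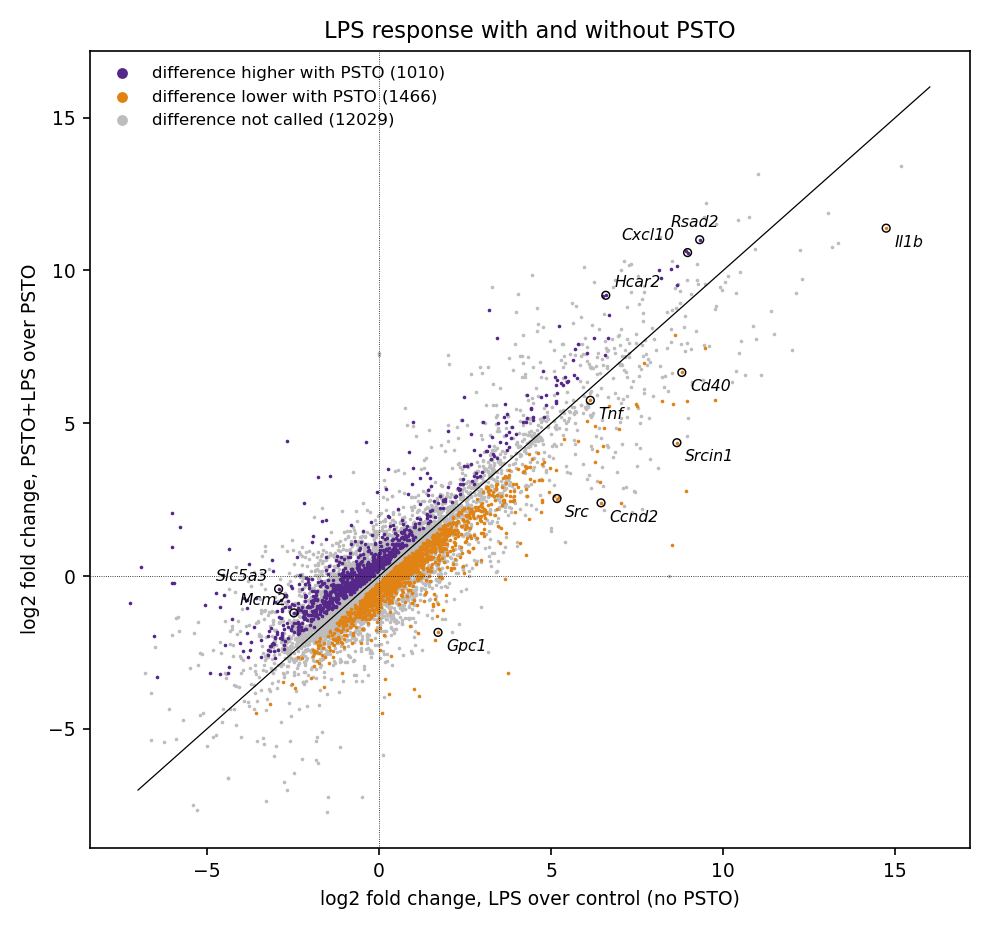
Log2 fold change of each gene on LPS with PSTO (PSTO+LPS over PSTO, vertical) against that without PSTO (LPS over control, horizontal), with the line of equal change. Coloured points are the genes whose difference was called, 1010 above the line and 1466 below it. Rsad2, Cxcl10 and Hcar2 lie above the line, and Il1b, Cd40 and Ccnd2 below it.

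Many of the antiviral interferon-stimulated genes rose more where PSTO was present, while other interferon-induced lists shared this in part or not at all. Of the 32 antiviral genes the difference was called higher for 20 and lower for 1 (Bst2), beside 6.96% and 10.1% of all genes, and the median change was 6.38 with PSTO and 5.49 without. Rsad2 averaged 11810 ± 1630 CPM in PSTO+LPS and 5.75 ± 1.11 CPM in PSTO, and 10810 ± 661 CPM in LPS and 17 ± 3.88 CPM in control. The difference for Rsad2 was 1.69 (SE 0.20, edgeR adjusted p = 5.54e-06). The means of PSTO+LPS and LPS lay closer together than the SD of PSTO+LPS, while the mean of PSTO lay under that of control by more than either SD. Cxcl10 rose by 10.58 with PSTO and 8.96 without, a difference of 1.62 (SE 0.41, edgeR adjusted p = 0.0101). Leaving out 1 of the 12 libraries at a time left 19 to 23 antiviral genes called higher and at most 3 lower. On the p200 DNA sensor list the difference was called higher for 4 of 12 genes and lower for 1. Among interferon-inducible GTPases it was called higher for 2 of 18 and lower for none. Their median change was 8.49 with PSTO and 7.17 without, with 5 members lacking a read in PSTO. In the MHC class I and immunoproteasome list the difference was called lower for 7 of 20 and higher for none. The other antiviral members called higher include Ifit1 (1.73), Mx1 (1.58) and Usp18 (1.53), as log2 differences.

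Hcar2 gave one of the clearest differences. It had 445, 414 and 410.5 CPM in the PSTO+LPS libraries and 1.01, 0.339 and 0.815 CPM in the PSTO libraries, and 124, 119 and 118 CPM in the LPS libraries and 1.5, 0.917 and 1.26 CPM in the control libraries. The difference was 2.60 (SE 0.27, edgeR adjusted p = 1.45e-06). Slc5a3, which imports the osmolyte inositol, had 103, 88.2 and 72.9 CPM in the PSTO+LPS libraries and 133, 109 and 112 CPM in the PSTO libraries, and 13.1, 17.5 and 13.2 CPM in the LPS libraries and 108, 118 and 104 CPM in the control libraries. LPS thus lowered it strongly without PSTO and little with PSTO, a difference of 2.50 (SE 0.17, edgeR adjusted p = 8.64e-09). Slc16a12, a carrier of creatine, fell by 0.86 with PSTO and more without it, to 5.93 ± 1.59 CPM in LPS against 47.4 ± 2.29 CPM in control, a difference of 2.16 (SE 0.20, edgeR adjusted p = 4.33e-07). Il23a rose by 8.19 with PSTO and 5.23 without, a difference of 2.96 (SE 0.89, edgeR adjusted p = 0.0267). It reached 0.125 CPM at most in control, and the difference was not called by limma-voom (2.46, adjusted p = 0.171), without control 1 (2.51) or without control 2 (2.72).

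Other genes rose less with PSTO. Il1b reached 2535 ± 101 CPM in PSTO+LPS against 0.945 ± 0.102 CPM in PSTO, and 1705 ± 43.8 CPM in LPS against 0.0521 ± 0.0902 CPM in control. The difference was -3.35 (SE 0.45, edgeR adjusted p = 2.59e-05). The fold was smaller with PSTO although the mean was higher in PSTO+LPS than in LPS, as the mean in PSTO was also higher than that in control, which rests on 5 reads. Ccnd2, a G1 cyclin, had 2.48, 5.96 and 3.63 CPM in the PSTO+LPS libraries and 0.898, 0.64 and 0.709 CPM in the PSTO libraries, and 26.5, 28.2 and 22.4 CPM in the LPS libraries and 0.125, 0.479 and 0.298 CPM in the control libraries, a difference of -4.05 (SE 0.50, edgeR adjusted p = 1.17e-05). Src, a tyrosine kinase of adhesion and signalling, had 94.2 ± 12.4 CPM in PSTO+LPS and 16.2 ± 1.3 CPM in PSTO, and 273 ± 8.13 CPM in LPS and 7.53 ± 1.06 CPM in control, a difference of -2.63 (SE 0.14, edgeR adjusted p = 9.56e-10). Gpc1, a cell surface proteoglycan, fell with PSTO (-1.84) and rose without it (1.72), as did Ocstamp (-1.86 and 1.12). Cd40 (-2.14), Tnf (-0.39) and Ccl4 (-0.71) had called negative differences too, and the difference was called lower for 5 of 11 CC chemokines and higher for none. It was called lower for 9 of 18 stress response genes and 6 of 11 MAP kinase phosphatase genes, and higher for none of either. Leaving out 1 of the 12 libraries at a time left 7 to 9 and 4 to 6 of them called lower. These lists are examples.

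The cell cycle lists differed in opposite ways. For DNA replication the median log2 change was -0.66 with PSTO and -1.65 without, and the difference was called higher for 17 of 23 genes and lower for none. For mitosis the medians were -1.73 with PSTO and -1.30 without, and the difference was called lower for 11 of 23 genes and higher for none. Mcm5 had 70.8, 67.5 and 68.1 CPM in the PSTO+LPS libraries, against 104, 117 and 124 CPM in the PSTO libraries, and 47.3, 46.9 and 45.9 CPM in the LPS libraries against 164, 162 and 164 CPM in the control libraries, a difference of 1.07 (SE 0.09, edgeR adjusted p = 8.54e-08). Leaving out 1 of the 12 libraries at a time gave 15 to 19 replication genes called higher and 6 to 12 mitosis genes called lower, with 6 without control 1 and 7 without control 3 or PSTO 1. Mki67 gave a difference of -0.37 (SE 0.10, edgeR adjusted p = 0.0141). Ung, which removes uracil from DNA, had 0.806, 0.679 and 0.119 CPM in the PSTO+LPS libraries, against 2.89, 6.62 and 6.35 CPM in the PSTO libraries, and 0.235 ± 0.168 CPM in LPS against 20.1 ± 0.806 CPM in control, a difference of 3.14 (SE 0.76, edgeR adjusted p = 0.00675). The call for Ung was lost without PSTO+LPS 1, where its difference was 2.63 (edgeR adjusted p = 0.0597), and by limma-voom (adjusted p = 0.072).

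**Figure D5:**
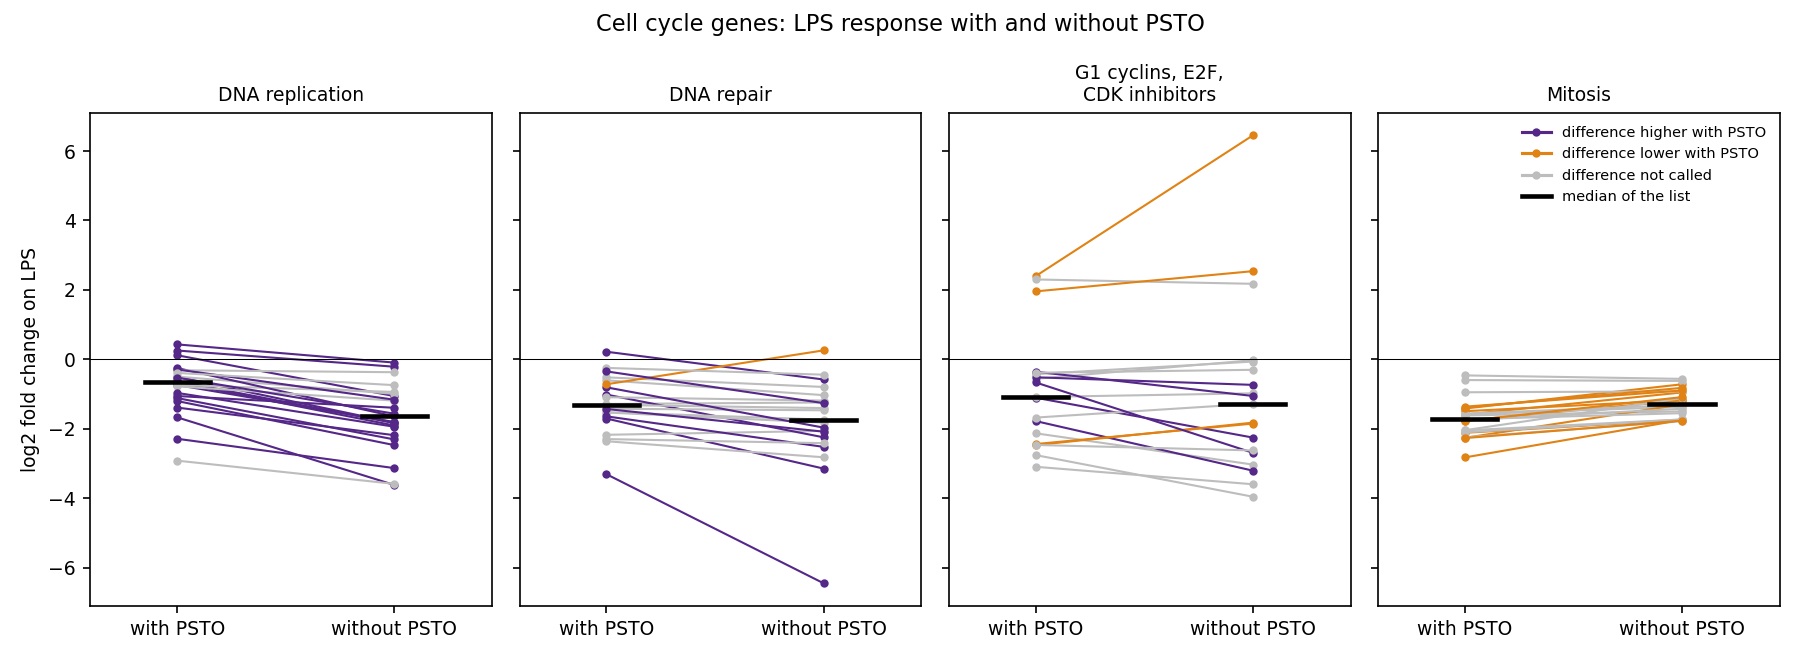
Log2 fold change on LPS of each gene (a line joining 2 points) with PSTO (left) and without PSTO (right), for the 4 lists of cell cycle and DNA repair genes, with the median of each list as a black bar. The medians of DNA replication are -0.66 and -1.65 and those of mitosis -1.73 and -1.30. Purple lines mark genes whose difference was called higher with PSTO and orange lines those called lower.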

How the data were processed

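RNA of RAW 264.7 cells was sequenced in 12 libraries, 3 in each of 4 groups, and 6 of them form the comparison of PSTO+LPS with PSTO. The deposited values are read counts per gene for 55137 entries. Per the submitters' processing notes HISAT, DESeq2 and the mouse build mm39 were used. Which counter, annotation and strand setting were used, and in which versions, is not given in the sources used here, so reads of overlapping or near-identical genes may be split or shared. Loci that the table marks as newly assembled (1336) held 0.22 to 0.481% of the reads of a library.

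Genes were filtered with filterByExpr of edgeR 4.0.16 (R 4.3.3), which left 14505. All 12 libraries were fitted with TMM scaling, 1 mean per group and the quasi-likelihood test, with Benjamini-Hochberg adjustment over all tested genes and a threshold of 0.05. The contrasts were PSTO+LPS minus PSTO, LPS minus control, and the first minus the second. The SE of a log2 change is its size divided by the square root of its F value. For genes with no read in PSTO the fold was set against 3 reads over that group, and for genes with 1 to 3 reads it is a ratio of scaled reads with an exact 95% interval for counting error. Alternatives were DESeq2 1.42.0, limma-voom (limma 3.58.1), relative log expression and upper-quartile scaling, other filters, the 6 libraries alone, a test against 2-fold, a replicate block and each library left out in turn. The code was tested on simulated counts.

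Genes and lists were chosen with earlier results of these data known. The text names the 12 largest rises and falls with at least 5 CPM in the higher group and no overlap, the 10 genes with most reads among those called at least 4-fold higher or 2-fold lower, 8 genes with no read in PSTO, members of each list with the largest called changes, the 10 largest differences in each direction and a panel of LPS genes. Further list members, and the promoters of Pola1, Mcm5 and Tnfaip3, were chosen after their values were seen. Promoter sequences are from RefSeq (GRCm38.p6), matched by symbol, and no coordinate of one build was carried to the other. Values of some genes are not reported here.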

Additional observations from a re-analysis of the deposited data

Results flagged for a closer look

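The response to LPS with PSTO differed from that without PSTO, by the test of the difference itself, in 2476 genes at an edgeR adjusted p under 0.05. The 10 largest positive and 10 largest negative differences among genes with at least 5 CPM in a group are given here as log2 values, change with PSTO minus change without.

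Snrnp40, a splicing factor gene, had the largest positive difference, 4.58, with 1.04, 4.61 and 14.1 CPM in the PSTO+LPS libraries and 1.8, 0.941 and 1.03 CPM in the PSTO libraries, and 0.754, 1.57 and 1.33 CPM in the LPS libraries and 1.28, 1.48 and 13.7 CPM in the control libraries. Without control 3 it was 2.63 and not called (edgeR adjusted p = 0.0654). Ung (3.14), Il23a (2.96), Hcar2 (2.60), Slc5a3 (2.49) and Slc16a12 (2.16) are described in the report. Gucy2g, a guanylyl cyclase receptor gene, differed by 2.81, with 9.36 ± 2.27 CPM in PSTO+LPS, against 1.38 ± 0.529 CPM in PSTO, and 1.14 ± 0.767 CPM in LPS against 1.19 ± 0.171 CPM in control. The eotaxin receptor gene Ccr3 differed by 2.75, and was not called without control 1 (edgeR adjusted p = 0.18) or without PSTO+LPS 1 (2.47, edgeR adjusted p = 0.0593). Apol9b (2.65), whose reads may be split with its copy Apol9a, was not called by limma-voom (adjusted p = 0.254). Epha2, an ephrin receptor gene, differed by 2.08, with 6.79 ± 2.19 CPM in PSTO+LPS, against 10.6 ± 0.643 CPM in PSTO, and 1.03 ± 0.241 CPM in LPS against 6.83 ± 1.22 CPM in control.

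In the negative direction, Srcin1, an inhibitor of Src, differed by -4.29, with 4.5 ± 0.801 CPM in PSTO+LPS, against 0.217 ± 0.188 CPM in PSTO, and 6.78 ± 0.54 CPM in LPS against 1 read in control, so the fitted value depends on how a near-empty group is handled. Ccnd2 (-4.05), Gpc1 (-3.56), Il1b (-3.35), Ocstamp (-2.98) and Src (-2.63) are described in the report. Bcl2a1a (-2.90) had 2 reads in control, shares reads with near-identical copies and was not called in several alternatives, with the replicate block (edgeR adjusted p = 0.0563) and the fit without PSTO+LPS 1 (edgeR adjusted p = 0.0535) among them. Txnrd2, a mitochondrial thioredoxin reductase gene, differed by -2.65, and was not called by DESeq2 (adjusted p = 0.0974) or without any of PSTO+LPS 2, PSTO+LPS 3, PSTO 1, control 1 or control 3 (-2.39 to -2.15). Its change between PSTO+LPS and PSTO was not called (-0.92) but was called without PSTO+LPS 1 (-2.15, edgeR adjusted p = 0.00376). The collagen gene Col27a1 differed by -2.60, with 5.52 ± 0.848 CPM in PSTO+LPS, against 1.28 ± 0.717 CPM in PSTO, and 15 ± 1.4 CPM in LPS against 0.583 ± 0.262 CPM in control. Nes, which encodes the filament protein nestin, differed by -2.54, lower with LPS where PSTO was present at 2.76 ± 0.599 CPM in PSTO+LPS, against 5.39 ± 0.931 CPM in PSTO, and higher without it at 4.32 ± 0.726 CPM in LPS against 1.44 ± 0.767 CPM in control.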

How the results depend on the processing

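The counts of called genes moved little between tools and scalings, while the share of tested genes that was called depended on the filter. Against 8662 of 14505 genes called for PSTO+LPS against PSTO, the other fits at the same threshold gave 7768 to 8787. Leaving out 1 library at a time gave 8146 to 8361. The filter at 50 reads gave 7768 calls among 10828 tested genes, and no filter gave 8636 among 25865. Tested against a 2-fold change instead of no change, 1364 genes were higher and 831 lower, fewer by the construction of that test. Upper-quartile scaling turned the sign of 2 of the 880 calls of listed genes. The replicate block gave 8521 calls and 2345 genes with a called difference, against 2476 without the block. Deviations of same-numbered PSTO+LPS and PSTO libraries had correlations of -0.0273, -0.0016 and -0.0196. Over the 4 pairs of groups compared, same-numbered libraries gave -0.0314 to 0.0513 and differently numbered ones -0.0467 to 0.0399. These values show no sign of pairing by number but, with 3 libraries a group, cannot exclude it. Among list medians, upper-quartile scaling turned the sign of 4 that lie within 0.05 of 0, namely those of the citric acid cycle, glycolysis, macrophage identity and autophagy lists, and that of macrophage identity also turned without PSTO+LPS 3 and with no filter (-0.02 each). Calls for PSTO+LPS against PSTO lost in an alternative, beside that of Actb in the report, include those of Uqcrc1 (0.81, edgeR adjusted p = 0.0699, without PSTO+LPS 1), mt-Co3 (0.29, without PSTO+LPS 1), C1ra (0.33, without PSTO+LPS 3), Cfp (0.07, upper-quartile scaling), Snrnp40 (limma-voom, adjusted p = 0.148), Epha2 (without PSTO 1, edgeR adjusted p = 0.0642) and Nes (without PSTO 1, edgeR adjusted p = 0.0568). The positive share of called differences, 40.8%, was 47.8% with relative log expression factors, 49.1% with upper-quartile scaling and 54.1% with a filter at 50 reads, and 51.3 to 54.0% without 1 PSTO or control library. The cause was not tested. Genes near 0 reads in PSTO or control carry the least certain folds, as 1 read decides their level, and 3 libraries a group limit the precision of all values.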
